A study of Mus musculus with 44 samples.

Results

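Phase II conjugation enzymes attach glutathione, glucuronic acid or sulfate to foreign chemicals and to bile acids, bilirubin, steroids and hormones, which makes these molecules more soluble and easier to export. Glutathione S-transferases (Gst genes) use glutathione, UDP-glucuronosyltransferases (Ugt genes) use UDP-glucuronic acid, and cytosolic sulfotransferases (Sult genes) use the sulfate donor PAPS. In the gut these enzymes are made mostly by absorptive epithelial cells, and their sets differ along the length of the intestine. The genes described here are those whose mouse symbol is Gsta, Gstk, Gstm, Gsto, Gstp or Gstt with a number, Ugt1a or Ugt2a or Ugt2b with a number, or Sult with a number, with at least 100 counts summed over 44 libraries of mouse intestine. Of 29720 genes in the deposited tables, 64 have such a symbol and 39 reached the minimum. They are 4 alpha, 7 mu and 9 pi, omega, theta or kappa glutathione S-transferases, 6 Ugt1a and 5 Ugt2 genes, and 8 sulfotransferases. Among the 25 genes left out, 17 had no count in any library. Just inside the minimum were Ugt1a9 with 125 counts, Gsto2 with 171 and Ugt1a8 with 198, and just outside it were Ugt2b1 with 73 and Ugt1a2 with 50.

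RNA was sequenced from intestine of C57BL/6 mice of 2 models of inflammatory bowel disease, each with inflamed and non-inflamed animals that received vehicle or the MK2 kinase inhibitor ATI-450. In the T cell transfer model (TCT) every mouse is Rag1 null and so has no mature T or B cells of its own. The inflamed mice received 400000 naive T cells into the peritoneum and developed colitis within 8 to 12 weeks, and the non-inflamed mice received 200000 bulk T cells. In the TNF∆ARE model the inflamed mice carry the Tnf ∆ARE/+ genotype, which removes an element that limits Tnf mRNA, and the non-inflamed mice are Tnf +/+ littermates. These mice entered treatment at 16 weeks of age. The inhibitor groups received 3 mg/kg ATI-450 and the vehicle groups methylcellulose with Tween20 in PBS, with another dose 16 h later and harvest 90 min after it; the series text gives 24 h. Transfer mice gave 6 inhibitor-treated inflamed, 6 vehicle-treated inflamed, 6 inhibitor-treated non-inflamed and 5 vehicle-treated non-inflamed libraries. TNF∆ARE mice gave 6, 5, 5 and 5 libraries of the same groups. The labels do not say that each library is a separate animal, so p-values measure the spread between these libraries.

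The transfer libraries held 5.95 to 22.3 M counts, where M stands for mega, and the TNF∆ARE libraries 5.80 to 13.1 M, and the 39 genes took 0.0887 to 0.335% and 0.173 to 0.323% of them. The tissue label says intestine and the protocol names distal colon and ileum without assigning them to libraries. The summed level of 15 small intestinal enterocyte markers was 27179 to 52229.9 counts per M (CPM) in vehicle-treated Tnf +/+ mice and 396 to 761 CPM in vehicle-treated non-inflamed transfer mice. The sum of 12 colonocyte markers was 447 to 1529.6 CPM and 4644 to 16639.8 CPM in these groups. Vehicle-treated inflamed transfer library 3 goes against its group, with 55492 CPM of small intestinal markers. The pancreatic gene Prss2 exceeded 10 CPM in vehicle-treated inflamed transfer libraries 1 and 5 (3173 and 46.3 CPM). Prss2 also did so in inhibitor-treated inflamed transfer libraries 3, 5 and 6 (891, 673 and 194 CPM). The sum of 13 pancreatic markers reached 35477 CPM and 10164 CPM in these groups, against at most 311 CPM in vehicle-treated non-inflamed transfer mice. The colonic gene Car1 exceeded 10 CPM in vehicle-treated inflamed TNF∆ARE libraries 1, 3 and 5 (793, 446 and 279 CPM). Car1 also did so in inhibitor-treated inflamed TNF∆ARE libraries 2, 3, 4 and 6 (38.8, 289, 255 and 67.4 CPM). The epithelial gene Epcam was at 0 in 41 of 44 libraries, although 9 other epithelial markers were detected. The labels give 4 batches, and the models share only batch 3, so model, gut region and batch cannot be told apart. In bulk tissue, fewer cells of a type and less RNA per cell cannot be told apart either.

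The start regions of 6 genes called below, some of whose calls were lost with libraries left out, are printed. Under vehicle, Gsta3, Gstm2 and Ugt1a6a rose in inflamed TNF∆ARE mice, while Gstm2 and Ugt1a6a fell in inflamed transfer mice. Sult1a1 had the lowest log2 fold change in inflamed transfer mice, and Sult1d1 and Ugt2b5 fell in inflamed TNF∆ARE mice. Directions thus depend on the model, and the windows are not a set of rising genes beside a set of falling ones. Each runs 5′ to 3′ along the gene from 250 bases before its start to 50 after it, from RefSeq on GRCm38.p6, and capitals mark the motif matches described after them.
Gsta3 (chr1:21240335-21240634, plus strand): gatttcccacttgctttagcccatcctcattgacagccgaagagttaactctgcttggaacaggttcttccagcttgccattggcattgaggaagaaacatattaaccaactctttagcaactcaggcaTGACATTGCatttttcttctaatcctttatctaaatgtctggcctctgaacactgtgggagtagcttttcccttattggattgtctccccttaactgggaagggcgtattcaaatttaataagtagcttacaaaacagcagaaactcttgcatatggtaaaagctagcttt
Gstm2 (chr3:107986371-107986670, minus strand): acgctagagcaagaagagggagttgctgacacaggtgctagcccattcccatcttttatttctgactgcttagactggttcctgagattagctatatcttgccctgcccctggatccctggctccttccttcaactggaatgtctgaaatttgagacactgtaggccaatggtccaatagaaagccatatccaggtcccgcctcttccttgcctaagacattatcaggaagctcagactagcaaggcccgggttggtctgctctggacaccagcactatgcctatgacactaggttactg
Ugt1a6a (chr1:88134559-88134858, plus strand): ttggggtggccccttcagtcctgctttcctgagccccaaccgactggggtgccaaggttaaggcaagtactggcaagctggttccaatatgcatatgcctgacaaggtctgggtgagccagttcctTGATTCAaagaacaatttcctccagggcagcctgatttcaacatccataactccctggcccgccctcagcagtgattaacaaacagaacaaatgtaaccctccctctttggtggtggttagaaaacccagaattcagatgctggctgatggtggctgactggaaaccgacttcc
Sult1a1 (chr7:126676369-126676668, minus strand): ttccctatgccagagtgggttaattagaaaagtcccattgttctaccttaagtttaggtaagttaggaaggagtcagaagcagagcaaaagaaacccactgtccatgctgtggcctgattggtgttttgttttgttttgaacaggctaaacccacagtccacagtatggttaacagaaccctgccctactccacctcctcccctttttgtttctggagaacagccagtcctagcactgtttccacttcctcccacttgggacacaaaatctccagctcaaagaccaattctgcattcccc
Sult1d1 (chr5:87568957-87569256, minus strand): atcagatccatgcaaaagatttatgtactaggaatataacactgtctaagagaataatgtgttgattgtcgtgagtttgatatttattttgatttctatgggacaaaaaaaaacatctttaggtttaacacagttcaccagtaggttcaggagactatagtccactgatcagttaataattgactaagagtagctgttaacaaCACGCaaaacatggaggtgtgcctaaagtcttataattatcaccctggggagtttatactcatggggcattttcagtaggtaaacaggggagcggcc
Ugt2b5 (chr5:87140291-87140590, minus strand): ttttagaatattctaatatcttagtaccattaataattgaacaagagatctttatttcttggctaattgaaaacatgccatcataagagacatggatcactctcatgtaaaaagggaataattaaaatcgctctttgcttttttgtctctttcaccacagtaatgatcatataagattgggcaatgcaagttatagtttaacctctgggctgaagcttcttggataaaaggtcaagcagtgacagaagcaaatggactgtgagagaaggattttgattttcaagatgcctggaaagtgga

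Start regions were found for 35 of the 39 genes, in 44 windows, and 3 motifs were searched on both strands. The antioxidant response element core bound by NRF2 (TGACNNNGC) was in 3 of 44 windows (6.82%; Gsta3, Gstm5 and Gstm7), against 12.4% of 32851 windows of all genes. The core bound by the aryl hydrocarbon receptor (GCGTG) was in 12 windows (27.3%), against 32.4% of all. An AP-1-like pattern (TGANTCA, with any base at N) was in 7 windows (15.9%), against 7.81%. Its Ugt1a6a and Ugt2b35 matches read TGATTCA, and the others TGACTCA or TGAGTCA. Of the printed windows, the Gsta3 window holds the antioxidant core 121 bases before the start, and the Ugt1a6a window the AP-1-like TGATTCA at 124 bases. The Sult1d1 window holds the GCGTG core on the reverse strand at 47 bases. The Gstm2, Sult1a1 and Ugt2b5 windows hold none of these letters. A match is a description of the letters and not of binding.

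Per kilobase of exon, the highest mean levels over 44 libraries were those of Ugt2b34 (121 CPM per kb), Gstp1 (120.0 CPM per kb), Sult1d1 (116 CPM per kb) and Sult1b1 (92.8 CPM per kb). Sult1a1 (54.0 CPM per kb), Ugt1a1 (52.0 CPM per kb) and Gstm1 (51.8 CPM per kb) followed. These means pool groups that differ: Sult1a1 averaged 81.4 CPM over all libraries with a median of 13.5 CPM, its highest libraries being those of non-inflamed transfer mice. Of the 39 genes, 32 averaged at least 1 CPM and 7 stayed under it, among them Ugt1a6b, Ugt1a8, Ugt1a9 and both omega genes, Gsto1 and Gsto2. Many of these genes lie side by side on GRCm38. The mu genes sit on chromosome 3 (Gstm1 at chr3:108012255-108017973, Gstm2 at chr3:107981702-107986453), and the pi genes on chromosome 19 (Gstp1 at chr19:4035407-4037985, Gstp3 at chr19:4057477-4059569). Chromosome 5 holds the Ugt2 genes (Ugt2b34 at chr5:86889767-86906937, Ugt2b5 at chr5:87124960-87140318) near Sult1b1 (chr5:87513339-87538195) and Sult1d1 (chr5:87554645-87569027). Sult1a1 lies at chr7:126672865-126676432 and Gsta3 at chr1:21240589-21265661. Ugt1a genes share their later exons on chromosome 1 (Ugt1a6a at chr1:88134809-88218997, Ugt1a1 at chr1:88211959-88218997). Gstp1 and Gstp2 are near-identical copies, and the mu genes are paralogs of varied similarity, so how reads were split within these groups is uncertain.

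Genes that are not described singly further on had these levels over the 44 libraries. Gstp2 had 10.8 to 49.7 CPM (median 29.1), Gstt2 4.44 to 22.4 CPM (median 9.30) and Gstk1 8.24 to 41.8 CPM (median 16.9). Sult2b1 had 15.6 to 272 CPM (median 70.7), with its highest libraries in Tnf +/+ mice, and Sult4a1, a sulfotransferase best known from brain, had 0.956 to 11.3 CPM (median 2.32). A few low genes were read mainly in 1 library. Sult6b2 had 61.4 CPM in vehicle-treated inflamed transfer library 1 and at most 1.82 CPM in any other, with no read in 24 libraries. Ugt1a8 had 9.20 CPM in vehicle-treated non-inflamed transfer library 4 and at most 0.707 CPM in any other. Gsto1, Gsto2, Sult5a1, Ugt1a6b and Ugt1a9 stayed at or under 2.42 CPM in every library.

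**Figure D1:**
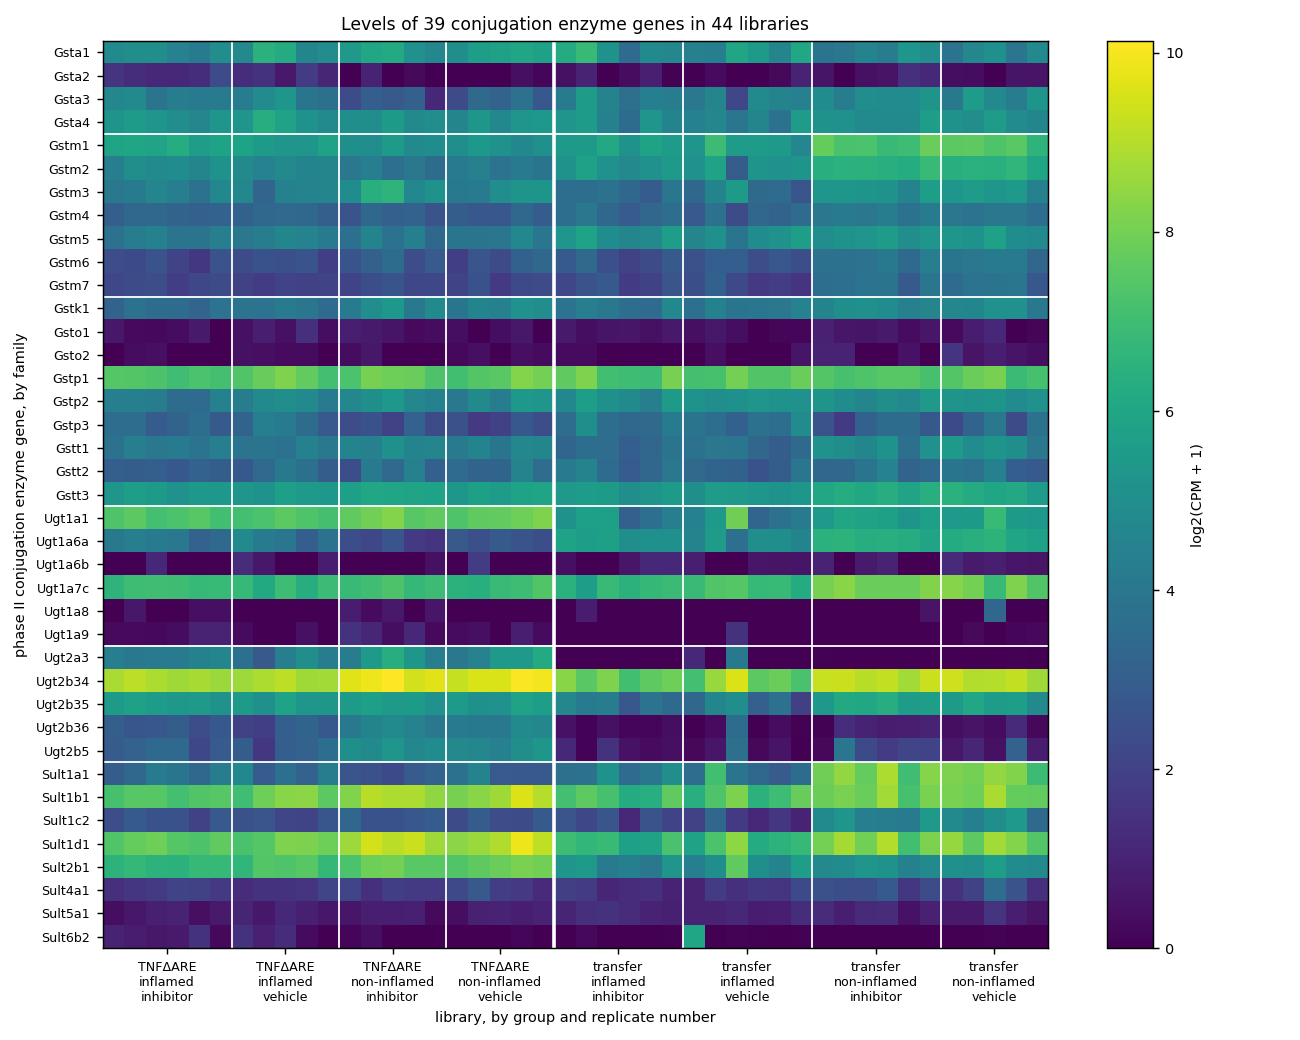
Levels of the 39 phase II conjugation genes (rows, by family) in 44 libraries (columns, by group), as log2(CPM + 1). Ugt2b34, Gstp1, Sult1b1 and Sult1d1 are high in all groups, Sult1a1 and Ugt1a6a are highest in non-inflamed transfer mice, and in transfer mice Ugt2a3 is at 16.3 CPM in vehicle-treated inflamed library 3, at 1.28 CPM in library 1 of that group and at most 0.0507 CPM in any other.

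Summed levels place these genes in proportion. All 39 genes together summed to 978 to 2704 CPM in vehicle-treated inflamed transfer mice, against 1834 to 3198 CPM in vehicle-treated non-inflamed transfer mice, and to 1651 to 2492 CPM in vehicle-treated Tnf ∆ARE/+ mice, against 2126 to 4345 CPM in vehicle-treated Tnf +/+ mice. The mu family summed to 121 to 262 CPM in vehicle-treated inflamed transfer mice, against 229.6 to 409 CPM in their non-inflamed group, and to 109 to 139 CPM in vehicle-treated Tnf ∆ARE/+ mice, against 91.9 to 126 CPM in Tnf +/+ mice. Sulfotransferases summed to 211 to 847 CPM in vehicle-treated inflamed transfer mice, against 541 to 1344 CPM in the non-inflamed ones, and to 412 to 805 CPM in vehicle-treated Tnf ∆ARE/+ mice, against 782 to 2002 CPM in Tnf +/+ mice. The Ugt2 genes summed to 147 to 836 CPM in vehicle-treated inflamed transfer mice, against 439 to 724 CPM in the non-inflamed ones, and to 471 to 645 CPM in vehicle-treated Tnf ∆ARE/+ mice, against 702 to 1242 CPM in Tnf +/+ mice. The Ugt2 sum did not overlap between the TNF∆ARE groups, and the ranges of the other sums given here overlapped between the groups of a model. The sums were not tested.

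To see how colitis goes with these enzymes, inflamed were compared with non-inflamed vehicle-treated transfer mice. Mu and theta glutathione S-transferases, the sulfotransferases Sult1a1 and Sult1c2, and the glucuronosyltransferases Ugt1a6a and Ugt1a7c were lower in inflamed mice, and none of the genes tested rose. Of the 34 genes that passed the count filter, 10 fell and 0 rose at an adjusted p below 0.05 (edgeR quasi-likelihood test with Benjamini-Hochberg adjustment over all 15317 genes, 6 against 5 libraries), while 14.2% of all genes changed, 7.90% upwards and 6.28% downwards. The median log2 fold change was -0.60 over the 34 genes and 0.05 over all genes. Below, log2FC is the log2 fold change of this fit ± an approximate SE. Every SE here is the absolute log2 fold change divided by the square root of the test's F statistic, which can fail at low counts. By family, 4 of 7 mu genes, 2 of 8 pi, omega, theta and kappa genes, 2 of 7 sulfotransferases and 2 of 4 Ugt1a genes fell, and none of 4 alpha genes or 4 Ugt2 genes passed. For Sult1c2, Gstm2, Ugt1a6a and Gstm6 (4 of 34) every inflamed library lay below every non-inflamed one, against 3.53% of all genes, and none lay above (against 3.11%). Batch was uneven here. Batch 4 held 5 inflamed and 2 non-inflamed libraries, batch 3 held 1 inflamed library and batch 1 held 3 non-inflamed ones. CPM ranges, here and below, were not adjusted for batch. Gsto2, Sult6b2, Ugt1a8, Ugt1a9 and Ugt2a3 were too low to test in this model.

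Sult1a1, which sulfates small phenols, had 6.53 to 132 CPM (median 11.2) in vehicle-treated inflamed transfer mice, against 283, 258, 360.3, 294 and 124 CPM in vehicle-treated non-inflamed mice. All inflamed libraries but library 2, at 132 CPM, lay far below every non-inflamed library. The log2 fold change was -3.13 ± 0.75 (adjusted p = 0.00994). Without inflamed library 2 it was -4.58 (adjusted p = 1.67e-05), and without non-inflamed library 6 the call was lost at -3.09 (adjusted p = 0.0555). Sult1c2, whose human counterpart acts on phenols, had 0.994 to 9.09 CPM (median 2.21) in vehicle-treated inflamed mice, against 27.9, 19.6, 32.1, 44.2 and 9.98 CPM in non-inflamed mice, and the groups did not overlap. Its log2 fold change was -3.13 ± 0.55 (adjusted p = 0.00255), and it kept the call with any 1 library left out. The other sulfotransferases of the gut did not pass. Sult1b1, which acts on thyroid hormones and phenols, had 82.6 to 284 CPM (median 143) in inflamed mice, against 271, 235, 466, 213 and 206 CPM in non-inflamed mice (log2FC -0.55 ± 0.32, adjusted p = 0.253). Sult1d1, which sulfates catecholamines in mice, had 56.4 to 341 CPM (median 101) in inflamed mice, against 366, 195, 422, 305 and 173 CPM in non-inflamed mice (log2FC -0.86 ± 0.41, adjusted p = 0.163). Sult1b1 overlapped through inflamed libraries 3 and 6 and Sult1d1 only through library 3, without which the log2 fold change of Sult1d1 was -1.31 (adjusted p = 0.00869).

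Gstm1, a mu-class enzyme for epoxides and other electrophiles, had 24.9 to 121 CPM (median 44.8) in vehicle-treated inflamed transfer mice, against 189, 196, 162, 183 and 94.6 CPM in non-inflamed mice. Library 2, at 121 CPM, was the only inflamed library above the lowest non-inflamed one. The log2 fold change was -1.65 ± 0.35 (adjusted p = 0.00528). Gstm2 had 6.93 to 56.8 CPM (median 35.6) in inflamed mice, against 84.0, 88.0, 86.6, 99.8 and 61.0 CPM in non-inflamed mice, with no overlap, and it fell (log2FC -1.23 ± 0.33, adjusted p = 0.0168). The 2 lower mu genes Gstm6 (-1.20 ± 0.24, adjusted p = 0.00369) and Gstm7 (-1.52 ± 0.38, adjusted p = 0.0127) also fell. Without non-inflamed library 6, the log2 fold change of Gstm2 was -1.10 (adjusted p = 0.104) and that of Gstm7 -1.29 (adjusted p = 0.101). Gstm3 missed the threshold (log2FC -1.06 ± 0.43, adjusted p = 0.0993) and passed without inflamed library 3, at a log2 fold change of -1.58 (adjusted p = 0.00245). In that library it had 45.4 CPM, against 20.9 to 47.9 CPM in non-inflamed mice. Gstm4 (log2FC -0.62 ± 0.22, adjusted p = 0.0643) and Gstm5 (log2FC -0.01 ± 0.27, adjusted p = 0.982) did not pass.

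Of 3 theta genes Gstt1 and Gstt3 fell. Gstt3 had 31.7 to 47.9 CPM (median 39) in vehicle-treated inflamed transfer mice, against 88.8, 74.0, 61.5, 68.7 and 45.8 CPM in non-inflamed mice (log2FC -0.69 ± 0.16, adjusted p = 0.00784). Gstt1, whose human counterpart acts on small halogenated compounds, had 6.92 to 15.2 CPM (median 11.6) in inflamed mice, against 42.8, 28.4, 36.8, 31.8 and 15.2 CPM in non-inflamed mice (log2FC -1.19 ± 0.30, adjusted p = 0.0127). Each overlapped only at the lowest non-inflamed library, and Gstt1 lost the call without non-inflamed library 6, at a log2 fold change of -1.09 (adjusted p = 0.0763). Gstp1, the pi-class enzyme with the highest level of the Gst genes per kb, did not pass, with 142 to 255 CPM (median 165) in inflamed mice, against 172, 222, 265, 121 and 144 CPM in non-inflamed mice (log2FC 0.25 ± 0.24, adjusted p = 0.488). Gstp3 had 7.85 to 28.9 CPM (median 12.4) in inflamed mice, against 3.86, 8.40, 15.8, 3.93 and 12.7 CPM in non-inflamed mice (log2FC 0.85 ± 0.50, adjusted p = 0.262). Inflamed and non-inflamed libraries of both pi genes were interspersed, and no alpha gene passed. Gsta4, which conjugates the lipid peroxidation product 4-hydroxynonenal, had 12.9 to 46.4 CPM (median 22.6) in inflamed mice, against 35.4, 31.2, 48.2, 28.8 and 23.8 CPM in non-inflamed mice (log2FC -0.27 ± 0.36, adjusted p = 0.638). Gsta1 had 19.7 to 66.2 CPM (median 34.3) in inflamed mice, against 13.6, 24.8, 32.6, 14.9 and 28.1 CPM in non-inflamed mice (log2FC 0.93 ± 0.55, adjusted p = 0.252). Gsta3, which in mice conjugates aflatoxin epoxide, had 3.47 to 27.2 CPM (median 21.2) in inflamed mice, against 16.0, 47.1, 27.2, 18 and 36.4 CPM in non-inflamed mice (log2FC -0.52 ± 0.43, adjusted p = 0.428). In each of these pi and alpha genes the groups overlapped.

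Ugt1a6a, which glucuronidates planar phenols, had 12.1 to 46.9 CPM (median 27.2) in vehicle-treated inflamed transfer mice, against 73.5, 82.2, 92.0, 61.1 and 54.3 CPM in non-inflamed mice, and every inflamed library lay below every non-inflamed one. Its log2 fold change was -1.06 ± 0.25 (adjusted p = 0.00858), and -1.04 (adjusted p = 0.0526) without non-inflamed library 6. Ugt1a7c had 74.6 to 177 CPM (median 116) in inflamed mice, against 312, 261, 114, 289 and 165 CPM in non-inflamed mice, with overlap (log2FC -0.97 ± 0.29, adjusted p = 0.0316). This call was lost in 7 of 11 fits with 1 library left out (without inflamed libraries 1, 4, 5 or 6 or non-inflamed libraries 1, 2 or 6), with adjusted p up to 0.16. Ugt1a1, the bilirubin glucuronosyltransferase, was called in neither direction. It had 8.90 to 247 CPM (median 19.2) in inflamed mice, against 43.6, 45.3, 113, 45.5 and 41.6 CPM in non-inflamed mice (log2FC 0.34 ± 0.79, adjusted p = 0.799), and its inflamed maximum was library 3. Ugt2b34 had 136 to 766 CPM (median 212) in inflamed mice, against 678, 503, 509.7, 594 and 410.3 CPM in non-inflamed mice (log2FC -0.77 ± 0.38, adjusted p = 0.176). Library 3, at 766 CPM, was above all non-inflamed libraries while the other 5 lay below them, and without it Ugt2b34 passed, at a log2 fold change of -1.24 (adjusted p = 0.00321). Ugt2b35 had 2.82 to 30.3 CPM (median 11.3) in inflamed mice, against 45.5, 65.3, 46.4, 50.7 and 28.1 CPM in non-inflamed mice (log2FC -1.36 ± 0.46, adjusted p = 0.0524), and passed without library 3, at -1.70 (adjusted p = 0.00964). Low levels were found for the other Ugt2 genes. Ugt2a3, which conjugates bile acids in humans, had 16.3 CPM in inflamed library 3 and 1.28 CPM in library 1, and was at 0 in the other 4, against at most 0.0474 CPM in non-inflamed mice. Ugt2b5 had 12.4 CPM in inflamed library 3 and at most 0.515 CPM in the other 5, against 0.552, 1.11, 0.378, 8.01 and 0.749 CPM in non-inflamed mice (log2FC -0.22 ± 1.20, adjusted p = 0.92), and without library 3 its log2 fold change was -3.13 (adjusted p = 0.0454). Ugt2b36 had 10.8 CPM in inflamed library 3 and at most 0.255 CPM in the other 5, against 0.307, 0.453, 0.252, 1.37 and 0.15 CPM in non-inflamed mice (log2FC 1.53 ± 1.15, adjusted p = 0.374), and without library 3 its log2 fold change was -2.21 (adjusted p = 0.0467).

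The 24 genes that did not pass had log2 fold changes of -1.36 (Ugt2b35) to 1.53 (Ugt2b36). Leaving out inflamed library 3 gave 16 called genes, all lower, with 10.2% of all genes lower, and leaving out non-inflamed library 6 gave 4 (Gstt3, Sult1c2, Gstm1 and Gstm6), with 1.21% of all genes lower. Within batch 4 alone, with 5 inflamed and 2 non-inflamed libraries, 0 of these genes passed, as did 0% of all genes, with Sult1c2 at -3.09, Sult1a1 at -2.58, Gstm1 at -1.28 and Gstm2 at -1.22 on the log2 scale (adjusted p = 0.558 for each). Vehicle-treated inflamed libraries 1, 3 and 5 and inhibitor-treated inflamed libraries 3, 5 and 6 carry transcripts of other organs or regions. In a fit that left all of these out together, 5 genes passed, all lower, while 1.81% of all genes were lower. Their log2 fold changes were those of Gstt1 (-1.22), Gstm3 (-1.53), Sult1c2 (-3.00), Gstm2 (-0.98) and Gstm6 (-1.45). The log2 fold change of Sult1a1 was then -2.17 (adjusted p = 0.106), that of Gstm1 -1.36 (adjusted p = 0.093) and that of Ugt1a6a -0.73 (adjusted p = 0.0624). Cell type markers moved in the same libraries. Of 12 colonocyte markers 4 fell and 0 rose, with a summed level of 579.6 to 4139 CPM in vehicle-treated inflamed mice, against 4644 to 16639.8 CPM in non-inflamed mice. Ly6g, which is on both the colonocyte and the neutrophil list and in both sums, did not pass (log2FC -0.42 ± 0.77, adjusted p = 0.737). None of 9 tested epithelial markers passed, and their sum was 13747 to 26440.4 CPM in inflamed mice, against 16642 to 22762 CPM in non-inflamed mice, with Epcam at 0 in both. Of 9 macrophage markers 7 rose (sum 265 to 4004 CPM in inflamed mice, against 182 to 514 CPM in non-inflamed mice), of 10 neutrophil markers 9 rose (sum 56.5 to 2073 CPM in inflamed mice, against 82.2 to 728 CPM in non-inflamed mice), and of 10 smooth muscle markers 5 fell (sum 1885 to 3324 CPM in inflamed mice, against 2955 to 9882 CPM in non-inflamed mice). Their part in the results was not tested.

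**Figure D2:**
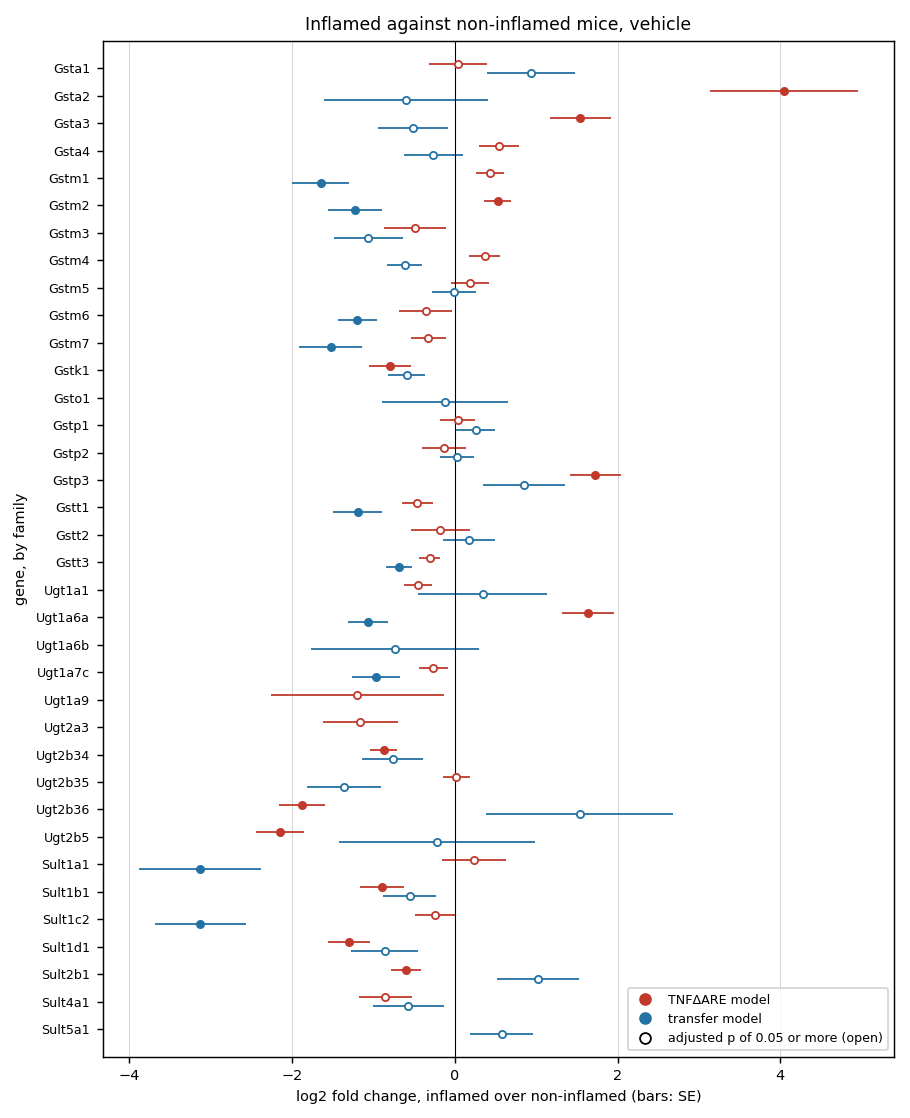
Log2 fold changes, inflamed over non-inflamed, vehicle-treated mice, for each gene tested, with bars of 1 SE; red, TNF∆ARE model, blue, transfer model, open symbols, adjusted p of at least 0.05. Sult1a1 and Sult1c2 lie near -3.13 in the transfer model and near 0 in the TNF∆ARE model, and Ugt1a6a lies at 1.64 in the TNF∆ARE model and -1.06 in the transfer model.

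The same comparison among inhibitor-treated transfer mice, in libraries other than the vehicle-treated ones, gave lower Sult1a1, Sult1c2 and Sult1d1, lower mu and theta glutathione S-transferases, and lower Ugt1a6a, Ugt1a7c, Ugt2b34 and Ugt2b35 in inflamed mice. Of 34 tested genes 14 fell and 0 rose (6 against 6 libraries), while 25.0% of all genes changed, 14.0% upwards and 11.0% downwards. The median log2 fold change was -0.63 over the 34 genes and 0.02 over all. All 10 genes called under vehicle were among these 14. None of these libraries held more than 824 CPM of small intestinal markers. Sult1a1 had 10.6 to 36.2 CPM (median 13.7) in inhibitor-treated inflamed mice, against 129 to 479 CPM (median 276) in inhibitor-treated non-inflamed mice, with no overlap (log2FC -3.60 ± 0.76, adjusted p = 0.00217). Sult1c2 had 1.18 to 5.44 CPM (median 4.29) in inflamed mice, against 17.6 to 44.2 CPM (median 23.5) in non-inflamed mice (log2FC -2.68 ± 0.53, adjusted p = 0.00132). Sult1d1 had 52.4 to 148 CPM (median 111) in inflamed mice, against 133 to 506 CPM (median 270.5) in non-inflamed mice (log2FC -1.18 ± 0.39, adjusted p = 0.0322). The Sult1c2 groups did not overlap, and the Sult1d1 groups overlapped near the lowest non-inflamed library. Ugt2b34 had 134 to 318 CPM (median 218) in inflamed mice, against 425 to 643 CPM (median 609) in non-inflamed mice (log2FC -1.13 ± 0.34, adjusted p = 0.0226). Ugt2b35 had 5.75 to 24.6 CPM (median 15.5) in inflamed mice, against 40.8 to 79.6 CPM (median 57.6) in non-inflamed mice (log2FC -1.75 ± 0.43, adjusted p = 0.00606). In both Ugt2 genes all inflamed libraries lay below all non-inflamed ones.

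In these inhibitor-treated transfer mice 5 of 7 mu genes fell, among them Gstm1 at 35.6 to 67.8 CPM in inflamed mice, against 116 to 225 CPM in non-inflamed mice (log2FC -1.67 ± 0.33, adjusted p = 0.00125), Gstm2 (log2FC -1.13 ± 0.30, adjusted p = 0.0101) and Gstm3 (log2FC -1.50 ± 0.40, adjusted p = 0.0102). The theta genes Gstt1 (log2FC -1.24 ± 0.28, adjusted p = 0.00394) and Gstt3 (log2FC -0.69 ± 0.14, adjusted p = 0.00179), and Ugt1a6a (log2FC -0.74 ± 0.22, adjusted p = 0.0223) and Ugt1a7c (log2FC -1.51 ± 0.28, adjusted p = 6.40e-04), fell as well. For 10 of the 34 genes every inflamed library was below every non-inflamed one, against 6.03% of all genes, and for none did they all lie above (against 7.20%). Gstp3 had 9.54 to 31.9 CPM (median 11.5) in inflamed mice, against 2.33 to 11.1 CPM (median 6.97) in non-inflamed mice, and missed the threshold (log2FC 1.16 ± 0.44, adjusted p = 0.0558). None of the 4 alpha genes passed. Calls of 3 genes depended on single libraries: Ugt2b34 was lost without inflamed libraries 2 or 6, Ugt1a6a without inflamed libraries 2 or 6 or non-inflamed library 5, and Sult1d1 without inflamed libraries 1, 2 or 6 or non-inflamed library 2. Without inflamed library 2 their log2 fold changes, in that order, were -0.99 (adjusted p = 0.0859), -0.74 (adjusted p = 0.0724) and -1.03 (adjusted p = 0.111). Within batch 1 alone (2 against 4 libraries) the log2 fold change of Sult1a1 was -4.67 (adjusted p = 4.93e-04), that of Sult1c2 -2.49 (adjusted p = 0.00452) and that of Gstm1 -1.86 (adjusted p = 0.00298), while batch 3 holds 1 non-inflamed library of this comparison and called 0 of these genes and 0.0142% of all genes, the lone library being assumed to vary like the others. Inflamed libraries 3, 5 and 6, which hold Prss2, were left out together with vehicle-treated inflamed libraries 1, 3 and 5. The log2 fold change of Sult1a1 was then -4.43 (adjusted p = 0.0027), that of Sult1c2 -2.81 (adjusted p = 0.0126) and that of Gstm1 -1.93 (adjusted p = 0.00713). Colonocyte markers summed to 1752 to 3444 CPM in inflamed mice, against 4315 to 9441 CPM in non-inflamed mice, and macrophage markers to 1513 to 3614 CPM in inflamed mice, against 169.5 to 572 CPM in non-inflamed mice. Their part in the results was not tested.

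In vehicle-treated TNF∆ARE mice, where Tnf ∆ARE/+ were compared with Tnf +/+ littermates, these genes moved both ways. The alpha genes Gsta2 and Gsta3, the mu gene Gstm2, the pi gene Gstp3 and Ugt1a6a rose, and the sulfotransferases Sult1b1, Sult1d1 and Sult2b1, the kappa gene Gstk1 and the glucuronosyltransferases Ugt2b34, Ugt2b36 and Ugt2b5 fell. These were 5 higher and 7 lower of 33 genes tested (5 against 5 libraries), while 15.9% of all 14370 genes changed, 8.66% upwards and 7.27% downwards. The median log2 fold change was -0.26 over the 33 genes and -0.02 over all. Of 5 Ugt2 genes 3 fell, and of 6 sulfotransferases 3 fell. Of 4 Ugt1a genes 1 rose, and of 4 alpha genes 2 rose. Every Tnf ∆ARE/+ library lay above every Tnf +/+ library for Gstm2, Ugt1a6a, Gsta2 and Gstp3 (4 of 33, against 5.85% of all genes) and below for Ugt2b34, Sult1d1, Ugt2b5 and Ugt2b36 (4 of 33, against 3.78%). Gsto1, Gsto2, Sult5a1, Sult6b2, Ugt1a6b and Ugt1a8 were too low to test in this model.

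Ugt1a6a had 27.2, 17.6, 14.8, 7.17 and 13.0 CPM in vehicle-treated Tnf ∆ARE/+ mice, against 6.09, 4.51, 6.25, 5.25 and 4.38 CPM in vehicle-treated Tnf +/+ mice, so every inflamed library lay above every non-inflamed one (log2FC 1.64 ± 0.32, adjusted p = 0.00127). Gsta3 had 18.1, 28.7, 38.6, 14.2 and 12.3 CPM in Tnf ∆ARE/+ mice, against 3.96, 10.4, 8.34, 12.7 and 6.00 CPM in Tnf +/+ mice (log2FC 1.54 ± 0.37, adjusted p = 0.00633). Only the highest Tnf +/+ library reached the lowest Tnf ∆ARE/+ library. Gstp3 had 8.30, 19.9, 17.2, 10.9 and 6.20 CPM in Tnf ∆ARE/+ mice, against 4.72, 2.20, 3.02, 5.94 and 4.27 CPM in Tnf +/+ mice, with no overlap (log2FC 1.73 ± 0.32, adjusted p = 7.56e-04). Gstm2 had 26.8, 21.3, 26.7, 23.0 and 23.8 CPM in Tnf ∆ARE/+ mice, against 16.9, 20.6, 13.3, 16.4 and 14.2 CPM in Tnf +/+ mice, also without overlap, for a log2 fold change of 0.52 ± 0.17 (adjusted p = 0.0363). It lost the call in 6 of 10 fits with 1 library left out (without Tnf ∆ARE/+ libraries 1, 2, 3 or 4 or Tnf +/+ libraries 3 or 5), with adjusted p up to 0.11. Gsta2 stayed low in both groups, with 1.54, 1.82, 0.601, 2.43 and 1.13 CPM in Tnf ∆ARE/+ mice, against 0, 0, 0, 0.342 and 0.115 CPM in Tnf +/+ mice, where 3 libraries had no read. Its fitted log2 fold change of 4.05 ± 0.91 (adjusted p = 0.00221) depends on the prior count at such levels. Gstm1 (log2FC 0.43 ± 0.17, adjusted p = 0.0978), Gsta4 (log2FC 0.54 ± 0.24, adjusted p = 0.148) and Gstp1 (log2FC 0.03 ± 0.21, adjusted p = 0.954) did not pass. Gsta1 had 26.0, 90.7, 74.1, 23.8 and 30.2 CPM in Tnf ∆ARE/+ mice, against 31.3, 50.8, 54.2, 60.4 and 54.2 CPM in Tnf +/+ mice (log2FC 0.03 ± 0.36, adjusted p = 0.974), with wide overlap.

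Ugt2b34, Sult1d1 and Sult1b1, among the highest of these genes per kb, fell in Tnf ∆ARE/+ mice. Ugt2b34 had 405, 467, 554, 412 and 426 CPM in vehicle-treated Tnf ∆ARE/+ mice, against 602, 747, 752, 1083 and 1000.4 CPM in Tnf +/+ mice, with no overlap (log2FC -0.87 ± 0.17, adjusted p = 0.00103). Sult1d1 had 150.1, 174, 286, 282 and 241 CPM in Tnf ∆ARE/+ mice, against 328, 393, 482, 952 and 576 CPM in Tnf +/+ mice, with no overlap (log2FC -1.30 ± 0.26, adjusted p = 0.00154). Its neighbour Sult1b1 had 128, 239.8, 318, 328 and 191 CPM in Tnf ∆ARE/+ mice, against 269, 320.2, 415, 765 and 513 CPM in Tnf +/+ mice, where the groups overlapped (log2FC -0.90 ± 0.27, adjusted p = 0.0282). The Ugt2 genes Ugt2b5 and Ugt2b36 had the lowest log2 fold changes among the genes that passed. Ugt2b5 had 6.84, 2.16, 7.21, 8.14 and 11.6 CPM in Tnf ∆ARE/+ mice, against 26.2, 25.0, 20.1, 31.3 and 40.5 CPM in Tnf +/+ mice (log2FC -2.15 ± 0.30, adjusted p = 5.12e-05). Ugt2b36 had 3.00, 2.73, 7.09, 8.62 and 5.92 CPM in Tnf ∆ARE/+ mice, against 16.7, 16.1, 16.2, 27.4 and 25.0 CPM in Tnf +/+ mice (log2FC -1.88 ± 0.29, adjusted p = 1.33e-04). All Tnf ∆ARE/+ libraries lay below all Tnf +/+ libraries for both. Ugt2b35, from the same cluster, did not pass, with 45.0, 33.0, 56.6, 39.2 and 40.6 CPM in Tnf ∆ARE/+ mice, against 42.1, 32.6, 33.7, 56.3 and 49.1 CPM in Tnf +/+ mice (log2FC 0.02 ± 0.17, adjusted p = 0.966). Ugt2a3 had 11.9, 6.03, 19.5, 31.5 and 18.9 CPM in Tnf ∆ARE/+ mice, against 15.5, 21.4, 42.6, 43.8 and 72.1 CPM in Tnf +/+ mice (log2FC -1.16 ± 0.46, adjusted p = 0.101). Sult2b1, which sulfates cholesterol and pregnenolone (log2FC -0.60 ± 0.18, adjusted p = 0.0304), and Gstk1, the kappa-class enzyme of mitochondria and peroxisomes (log2FC -0.79 ± 0.26, adjusted p = 0.0442), fell by less. Ugt1a1 (log2FC -0.45 ± 0.17, adjusted p = 0.0772), Sult1a1 (log2FC 0.24 ± 0.39, adjusted p = 0.782) and Sult1c2 (log2FC -0.24 ± 0.25, adjusted p = 0.615) did not pass.

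Single libraries decided 3 of these falls. Sult2b1 lost the call without Tnf ∆ARE/+ libraries 1 or 5 or Tnf +/+ libraries 3, 4 or 5 (log2 fold changes -0.70 to -0.48 over the 10 fits with 1 library left out). Sult1b1 lost it without Tnf ∆ARE/+ libraries 1, 2 or 5 or Tnf +/+ libraries 4 or 5 (-1.05 to -0.63), and Gstk1 in 7 of 10 fits, without Tnf ∆ARE/+ libraries 1, 2, 4 or 5 or Tnf +/+ libraries 2, 4 or 5 (-0.94 to -0.63). Within batch 2 alone (4 against 5 libraries) 7 genes passed, while 9.53% of all genes did, with Gsta3 at 1.61, Ugt1a6a at 1.66, Gstp3 at 1.81, Ugt2b34 at -0.85, Sult1d1 at -1.27, Ugt2b5 at -2.21 and Ugt2b36 at -1.92 on the log2 scale. Without Tnf ∆ARE/+ libraries 1, 3 and 5, which hold the colonic gene Car1, 6 genes passed, while 7.70% of all genes did. The log2 fold change of Gsta3 was then 1.40 (adjusted p = 0.0699) and that of Ugt1a6a 1.23 (adjusted p = 0.0606), while Ugt2b34 (-0.91), Sult1d1 (-1.24), Ugt2b5 (-2.46), Ugt2b36 (-1.82), Gsta2 (4.50) and Gstp3 (1.95) passed. Markers of absorptive cells moved in the same libraries. Of 15 small intestinal enterocyte markers 12 fell and 0 rose, with a sum of 14906 to 25585 CPM in Tnf ∆ARE/+ mice, against 27179 to 52229.9 CPM in Tnf +/+ mice. Of 9 tested epithelial markers 1 rose and 2 fell, with sums of 16503 to 27054 CPM in Tnf ∆ARE/+ mice, against 17509 to 32255 CPM in Tnf +/+ mice. All 9 macrophage markers rose (sum 1958 to 4494 CPM in Tnf ∆ARE/+ mice, against 238 to 564 CPM in Tnf +/+ mice), and so did all 7 tested neutrophil markers (sum 147 to 339 CPM in Tnf ∆ARE/+ mice, against 5.88 to 11.0 CPM in Tnf +/+ mice, where Stfa2l1 was at 0). Their part in the results was not tested.

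**Figure D3:**
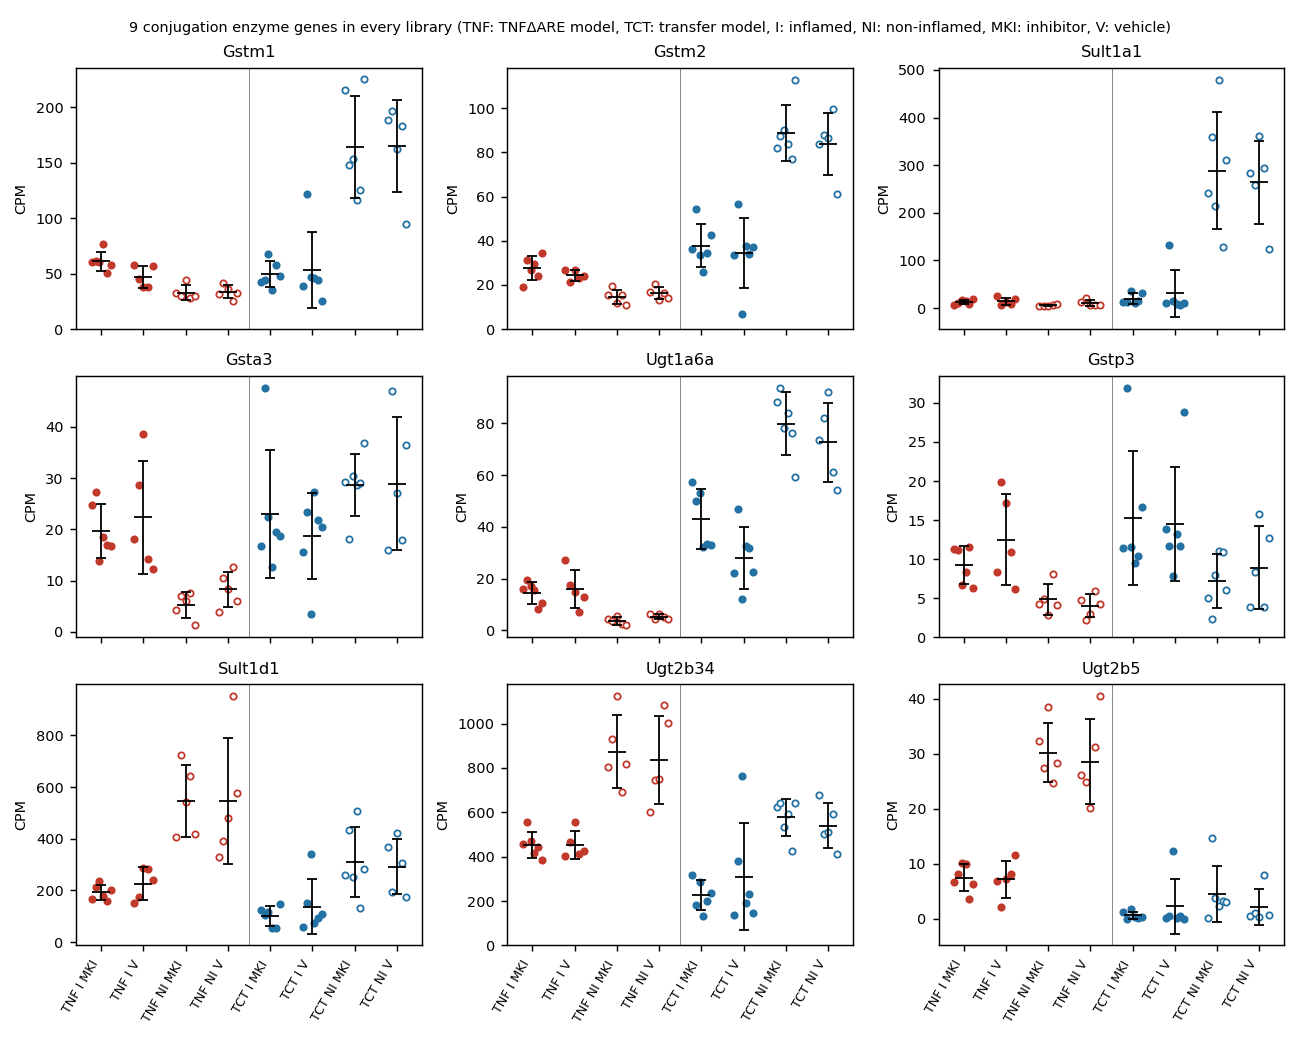
CPM of 9 genes in every library, by group, with bars for the mean ± SD; filled points are inflamed and open points non-inflamed libraries. Sult1a1 exceeds 120 CPM in every non-inflamed transfer library and stays at or under 36.2 CPM in inflamed ones apart from vehicle library 2, and Ugt2b5 is above 20 CPM in every non-inflamed TNF∆ARE library and at most 11.6 CPM in inflamed ones.

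Among inhibitor-treated TNF∆ARE mice, Gsta2, Gsta3, Gstm1, Gstp3 and Ugt1a6a were higher in Tnf ∆ARE/+ mice, and Sult1b1, Sult1d1, Sult2b1, Gstk1, Gstm3, Gstt3, Ugt2b34, Ugt2b36 and Ugt2b5 were lower. These were 5 higher and 9 lower of 33 genes (6 against 5 libraries), while 12.5% of all genes changed, 7.91% upwards and 4.56% downwards. The median log2 fold change was -0.43 over the 33 genes and -0.01 over all, and 11 of the 12 genes called under vehicle were among these 14. The exception was Gstm2. Gsta3 had 13.8 to 27.4 CPM (median 17.7) in inhibitor-treated Tnf ∆ARE/+ mice, against 4.17, 7.05, 6.11, 7.56 and 1.26 CPM in inhibitor-treated Tnf +/+ mice (log2FC 2.50 ± 0.51, adjusted p = 0.00247). Ugt1a6a had 8.12 to 19.2 CPM (median 15.8) in Tnf ∆ARE/+ mice, against 4.35, 3.53, 5.41, 2.30 and 1.89 CPM in Tnf +/+ mice (log2FC 2.28 ± 0.43, adjusted p = 0.00144). Gstm1 had 50.1 to 76.8 CPM (median 60.2) in Tnf ∆ARE/+ mice, against 32.2, 30.1, 44.6, 28.0 and 29.5 CPM in Tnf +/+ mice (log2FC 0.75 ± 0.22, adjusted p = 0.032). In these 3 genes and Gsta2 all Tnf ∆ARE/+ libraries lay above all Tnf +/+ libraries (4 of 33 genes, against 12.3% of all genes), and for 9 genes they lay below (against 10.2%). Gstp3 (log2FC 1.52 ± 0.43, adjusted p = 0.0245) and Gsta2 (log2FC 3.18 ± 0.91, adjusted p = 0.0191) also rose. Sult1d1 had 158 to 237 CPM (median 189) in Tnf ∆ARE/+ mice, against 406, 723, 542, 641 and 416 CPM in Tnf +/+ mice (log2FC -1.65 ± 0.36, adjusted p = 0.00454). Ugt2b5 had 3.65 to 10.1 CPM (median 7.40) in Tnf ∆ARE/+ mice, against 32.4, 27.4, 38.5, 24.8 and 28.3 CPM in Tnf +/+ mice (log2FC -2.46 ± 0.40, adjusted p = 4.30e-04). Both were without overlap. Ugt2b34 (log2FC -0.89 ± 0.23, adjusted p = 0.0142), Ugt2b36 (log2FC -1.68 ± 0.39, adjusted p = 0.00699), Sult1b1 (log2FC -1.29 ± 0.40, adjusted p = 0.04), Sult2b1 (log2FC -0.85 ± 0.27, adjusted p = 0.0461), Gstk1 (log2FC -1.29 ± 0.40, adjusted p = 0.0394), Gstm3 (log2FC -1.74 ± 0.53, adjusted p = 0.0371) and Gstt3 (log2FC -0.58 ± 0.18, adjusted p = 0.0426) fell too.

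Batch limits these values, because library 1 is the only inhibitor-treated Tnf ∆ARE/+ library that shares batch 2 with the Tnf +/+ group. Without it 1 gene passed, Ugt2b5, at a log2 fold change of -2.87 (adjusted p = 0.00907), while 3.15% of all genes did. The log2 fold change of Gsta3 was then 2.88 (adjusted p = 0.0678) and that of Ugt1a6a 2.41 (adjusted p = 0.0645). Batch 2 alone sets that 1 library against 5, so its values describe 1 library, which is assumed to vary like the others: 1 gene and 2.06% of all genes passed there, with log2 fold changes of -2.18 for Ugt2b5, 2.27 for Gsta3 and 2.19 for Ugt1a6a. Leaving out Tnf +/+ library 3 or Tnf ∆ARE/+ library 5 left 9 genes in each case, with 9.58% and 11.3% of all genes called. Without Tnf ∆ARE/+ libraries 2, 3, 4 and 6, which hold Car1, 7 genes passed, 3 higher and 4 lower, while 5.60% of all genes were higher and 2.31% lower. Small intestinal enterocyte markers summed to 12821 to 18279 CPM in Tnf ∆ARE/+ mice, against 31546 to 56942 CPM in Tnf +/+ mice, and macrophage markers to 2276 to 3944 CPM in Tnf ∆ARE/+ mice, against 150.1 to 710.5 CPM in Tnf +/+ mice. Their part in the results was not tested.

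The inflammation effect differed between the models for 8 of 36 genes, each with a more positive log2 change in vehicle-treated TNF∆ARE mice than in vehicle-treated transfer mice, and for none in the other direction (joint edgeR fit of 44 libraries with batch within model), while 5.27% of all genes differed, 1.91% in this direction and 3.37% in the other. Mu and alpha glutathione S-transferases, Ugt1a6a and the sulfotransferases Sult1a1 and Sult1c2 made up the 8. For Ugt1a6a, which rose in TNF∆ARE mice and fell in transfer mice, the difference of log2 changes was 2.70 ± 0.42 (adjusted p = 1.62e-04). Gstm2 also rose in TNF∆ARE and fell in transfer mice, with a difference of 1.76 ± 0.38 (adjusted p = 0.00409), and Gstm1 differed by 2.08 ± 0.41 (adjusted p = 0.00193). Sult1a1 and Sult1c2, which fell in transfer mice and did not pass in TNF∆ARE mice, differed by 3.35 ± 0.87 (adjusted p = 0.0178) and 2.87 ± 0.63 (adjusted p = 0.00498). Gsta3 differed by 2.06 ± 0.60 (adjusted p = 0.0348), Gsta2 by 4.71 ± 1.46 (adjusted p = 0.0453) and Gstm4, which passed in neither model alone, by 0.99 ± 0.29 (adjusted p = 0.0367). No Ugt2 gene passed. The difference was -0.10 ± 0.42 (adjusted p = 0.941) for Ugt2b34, with a 95% interval of -0.95 to 0.76, and -1.91 ± 1.28 (adjusted p = 0.451) for Ugt2b5, with an interval of -4.51 to 0.69. For Sult1d1 it was -0.43 ± 0.49 (adjusted p = 0.703), with an interval of -1.43 to 0.58. Ugt1a6a, Gstm1 and Gstm2 kept the call with any 1 of 21 libraries left out. The other 5 did not: without non-inflamed transfer library 6 the difference was 2.39 (adjusted p = 0.0512) for Sult1c2 and 3.31 (adjusted p = 0.0602) for Sult1a1, which also lost the call without Tnf ∆ARE/+ library 1. Gsta3 lost it without Tnf ∆ARE/+ libraries 2 or 3 or Tnf +/+ libraries 1 or 5 or non-inflamed transfer libraries 2 or 7, Gstm4 without Tnf ∆ARE/+ libraries 2, 3 or 4 or Tnf +/+ libraries 2, 3 or 5 or inflamed transfer library 1 or non-inflamed transfer library 6, and Gsta2 in 16 of 21 fits, with adjusted p up to 0.116. The count was 13 without inflamed transfer library 2, 4 without non-inflamed transfer library 6, and 5 without Tnf +/+ library 5 or Tnf ∆ARE/+ library 2, while 7.59%, 2.36%, 4.09% and 4.03% of all genes were called in these fits, in this order. With inflamed transfer library 3 and Tnf ∆ARE/+ libraries 1, 3 and 5 left out together, 3 genes passed, while 1.54% of all genes did, with differences of log2 changes for Gstm2 (1.49), Ugt1a6a (2.17) and Gstm1 (1.93). The models differ in gut region as well as in the way inflammation arises, and the libraries cannot tell these apart.

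Non-inflamed mice of the models already differed in which conjugation enzymes they held. Vehicle-treated Tnf +/+ mice had more of Ugt1a1, Ugt2a3, Ugt2b36, Ugt2b5, Sult1d1, Sult2b1 and Gsta1 than vehicle-treated non-inflamed transfer mice, and less of Ugt1a6a, Ugt1a7c, Sult1a1, Sult1c2, Gsta3, Gstp3, Gstt3 and 6 of the 7 mu genes. These were 7 higher and 13 lower of 36 genes tested (5 against 5 libraries, joint fit without a batch term), while 33.4% of all 15565 genes differed, 18.2% upwards and 15.2% downwards. Ugt2a3 had 15.5, 21.4, 42.6, 43.8 and 72.1 CPM in Tnf +/+ mice, against 1 read in all 5 non-inflamed transfer libraries, a ratio of pooled CPM of 2951 with a 95% counting interval of 529 to 116637. This interval comes from pooled reads and leaves out the spread between libraries. Ugt2b36 had 16.7, 16.1, 16.2, 27.4 and 25.0 CPM in Tnf +/+ mice, against 0.307, 0.453, 0.252, 1.37 and 0.15 CPM in transfer mice (log2FC 5.26 ± 0.83, adjusted p = 2.85e-06). Every Tnf +/+ library was far above every transfer library in both genes, and Ugt2b5 was also higher (log2FC 3.70 ± 0.90, adjusted p = 0.00121). Sult1a1 ran the other way, with 13.2, 21.9, 6.57, 6.05 and 6.11 CPM in Tnf +/+ mice, against 283, 258, 360.3, 294 and 124 CPM in transfer mice (log2FC -4.59 ± 0.64, adjusted p = 3.86e-07). So did Ugt1a6a, with 6.09, 4.51, 6.25, 5.25 and 4.38 CPM in Tnf +/+ mice, against 73.5, 82.2, 92.0, 61.1 and 54.3 CPM in transfer mice (log2FC -3.76 ± 0.32, adjusted p = 9.59e-12). Neither gene overlapped. Over the 36 genes, every Tnf +/+ library lay above every transfer library for 5 (against 11.1% of all genes) and below for 9 (against 8.91%). Gstm1 (log2FC -2.28 ± 0.27, adjusted p = 1.74e-08) and Gstm2 (log2FC -2.35 ± 0.26, adjusted p = 4.97e-09) were lower, Sult2b1 (log2FC 2.73 ± 0.40, adjusted p = 1.04e-06) and Ugt1a1 (log2FC 1.94 ± 0.55, adjusted p = 0.00491) were higher, and Ugt2b34 (log2FC 0.65 ± 0.28, adjusted p = 0.0766), Sult1b1 (log2FC 0.73 ± 0.31, adjusted p = 0.0686), Gstp1 (log2FC 0.20 ± 0.23, adjusted p = 0.542) and Ugt2b35 (log2FC -0.13 ± 0.34, adjusted p = 0.804) did not pass. Of 15 small intestinal enterocyte markers all 15 were higher, and of 12 colonocyte markers 10 were lower and 0 higher. Batches were not shared (batch 2 against batches 1 and 4), so model, gut region, genotype, transferred T cells and batch cannot be told apart here. Gstt3 lost the call without Tnf +/+ libraries 1 or 3 or non-inflamed transfer libraries 1, 2 or 6, Sult1d1 without Tnf +/+ libraries 3, 4 or 5 or non-inflamed transfer libraries 2, 6 or 7, Gstp3 without Tnf +/+ libraries 2 or 3 or non-inflamed transfer libraries 4 or 7, and Gsta1 without Tnf +/+ libraries 2, 3, 4 or 5 or non-inflamed transfer libraries 1, 2 or 6. The other 16 genes kept it with any 1 library left out.

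The study asks what MK2 inhibition does in these tissues, and none of the phase II genes passed in inhibitor over vehicle. In inflamed transfer mice 0 of 34 genes passed (edgeR) and 0 had an unadjusted p below 0.05. Of all 15317 genes 1 passed (0.00653%) and 530 had an unadjusted p below 0.05. DESeq2 called 0 phase II genes there, against 0.105% of all genes. For 0 of the 34 were the groups apart, with inhibitor above or below vehicle (against 0.0588% and 0.104% of all genes). In non-inflamed transfer mice 0 of 34 passed (unadjusted 0), as did 0% of all genes, and 0 were apart above or below (against 0.0457% and 0.0457%). DESeq2 called 1 phase II gene there, against 0.205% of all genes. It was Sult6b2, which had 0 counts over all inhibitor-treated and 1 count over all vehicle-treated non-inflamed transfer libraries. In inflamed TNF∆ARE mice 0 of 33 passed (unadjusted 0), as did 0% of all genes, and 0 were apart above or below (against 0.738% and 0.592%). DESeq2 called 0 phase II genes there, against 0.00488% of all genes. In Tnf +/+ mice 0 of 33 passed, as did 0% of all genes, and 0 were apart above or below (against 0.0348% and 0.334%). DESeq2 called 0 phase II genes there, against 0.150% of all genes. In edgeR, Gstm3 (0.98 ± 0.36), Sult1a1 (-0.91 ± 0.40) and Ugt1a9 (1.58 ± 0.69) had an unadjusted p below 0.05 in Tnf +/+ mice (log2 fold change ± SE, adjusted p = 0.999, 0.999 and 0.999). Over the 10 genes called on inflammation in vehicle-treated transfer mice, the log2 fold change of inhibitor over vehicle in inflamed transfer mice lay between -0.32 ± 0.29 for Ugt1a7c and 0.52 ± 0.58 for Sult1c2, and over the 12 called in vehicle-treated TNF∆ARE mice it lay between -0.49 ± 0.35 for Sult1b1 and 0.39 ± 0.66 for Gsta2 in inflamed TNF∆ARE mice. With 95% intervals, in inflamed transfer mice it was -0.27 ± 0.76 for Sult1a1 (-1.85 to 1.31), 0.52 ± 0.58 for Sult1c2 (-0.69 to 1.74), -0.02 ± 0.36 for Gstm1 (-0.76 to 0.73) and 0.43 ± 0.26 for Ugt1a6a (-0.10 to 0.97). Ugt2b34 gave -0.18 ± 0.39 there (-1.0 to 0.64), with 134 to 318 CPM (median 218) in inhibitor-treated and 136 to 766 CPM (median 212) in vehicle-treated inflamed transfer mice. In inflamed TNF∆ARE mice it was 0.03 ± 0.37 for Ugt1a6a (-0.75 to 0.81), 0.29 ± 0.46 for Gsta3 (-0.67 to 1.26), 0.06 ± 0.39 for Gstp3 (-0.76 to 0.88), -0.23 ± 0.35 for Ugt2b5 (-0.96 to 0.50), -0.35 ± 0.31 for Sult1d1 (-1.0 to 0.30) and 0.04 ± 0.20 for Ugt2b34 (-0.37 to 0.46). Batch was uneven in inflamed mice. In TNF∆ARE mice batch 3 held 5 inhibitor-treated libraries and 1 vehicle-treated library, and batch 2 held 1 and 4. In transfer mice batch 4 held 1 and 5, and batch 3 held 3 and 1. Without the batch term, 2354 of all genes in inflamed TNF∆ARE mice had an unadjusted p below 0.05 (edgeR), against 216 with it. In inflamed transfer mice these were 1052 and 530. The CPM ranges were not adjusted for batch. A p that misses the threshold does not show equal levels, and the intervals give the sizes that these libraries leave possible.

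**Figure D4:**
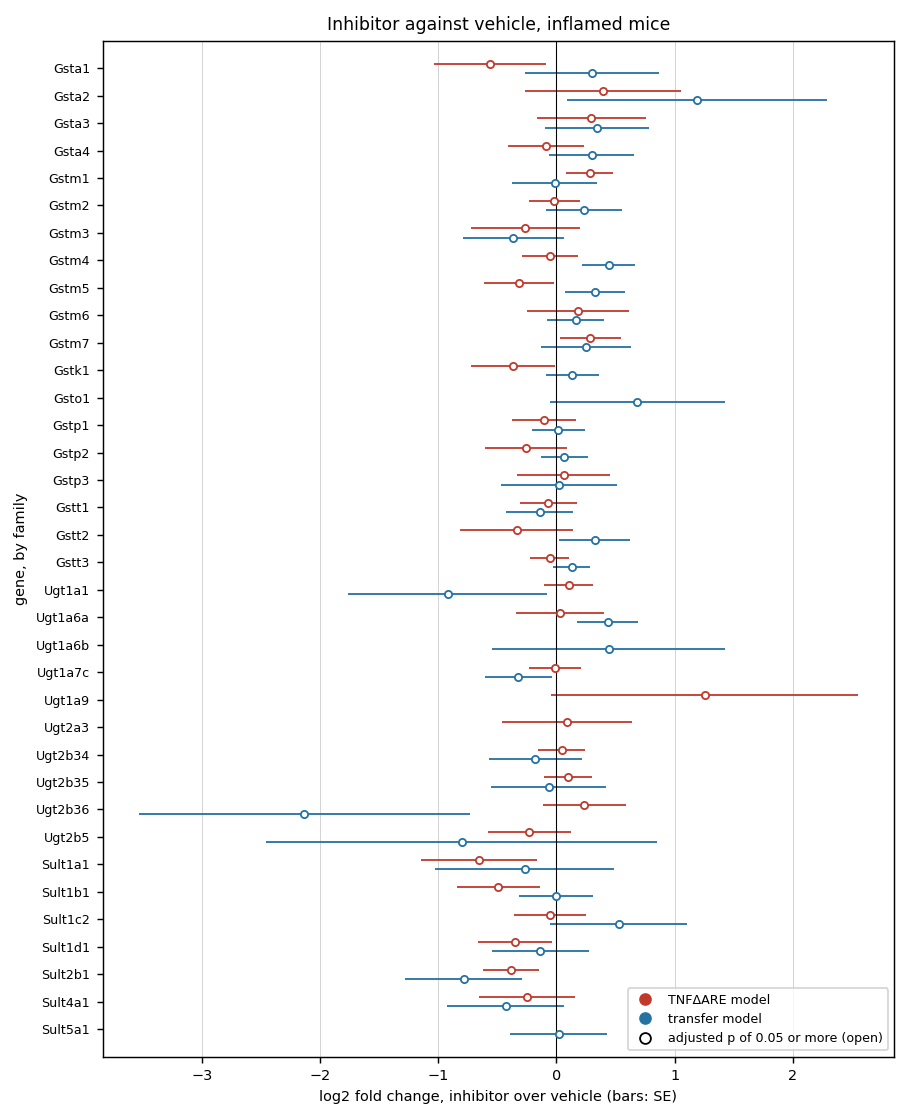
Log2 fold changes, inhibitor over vehicle, in inflamed mice, for each gene tested, with bars of 1 SE; red, TNF∆ARE model, blue, transfer model. All symbols are open, since the adjusted p of every gene was at least 0.05 in both models.

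Genes around these enzymes were followed in 6 lists, read against the 7.90% of all genes that rose and 6.28% that fell in vehicle-treated inflamed transfer mice (median log2 fold change 0.05) and the 8.66% that rose and 7.27% that fell in vehicle-treated Tnf ∆ARE/+ mice (median -0.02). The list for cofactors of glucuronidation and sulfation also holds genes that make neither cofactor, such as Slc26a3 and Bpnt1. Of its 10 tested genes, 3 fell and 0 rose in vehicle-treated inflamed transfer mice (median log2 fold change -0.27). In vehicle-treated Tnf ∆ARE/+ mice 3 fell and 0 rose (median -0.44). Ugdh, which makes UDP-glucuronic acid, had 74.9 to 228 CPM in inflamed transfer mice, against 208 to 497 CPM in non-inflamed mice (log2FC -1.31 ± 0.30, adjusted p = 0.00853), and 127 to 184 CPM in Tnf ∆ARE/+ mice, against 159 to 325 CPM in Tnf +/+ mice (log2FC -0.62 ± 0.16, adjusted p = 0.0117). The sulfate transporter Slc26a2 fell by 1.82 ± 0.47 in inflamed transfer mice (adjusted p = 0.0143), with 108 to 599.8 CPM, against 716 to 2071 CPM in non-inflamed mice. The chloride and bicarbonate exchanger Slc26a3, which is also on the colonocyte list, fell in both (log2FC -2.27 ± 0.47, adjusted p = 0.0044 in transfer mice, log2FC -1.40 ± 0.22, adjusted p = 1.60e-04 in TNF∆ARE mice), and Bpnt1, which breaks down the by-product of sulfation, fell in TNF∆ARE mice (log2FC -0.63 ± 0.18, adjusted p = 0.0177). Without non-inflamed transfer library 6, the adjusted p of Ugdh was 0.0743 and that of Slc26a2 0.0719. Bpnt1 lost the call without Tnf ∆ARE/+ library 2 or Tnf +/+ library 5 (adjusted p up to 0.0701). Within single batches, Ugdh was -1.11 in batch 4 of the transfer model (adjusted p = 0.558) and -0.60 in batch 2 of the TNF∆ARE model (adjusted p = 0.0907).

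Among 21 genes of glutathione supply and NRF2 targets, 3 rose and 0 fell in vehicle-treated inflamed transfer mice (median 0.48), and 4 rose and 2 fell in vehicle-treated Tnf ∆ARE/+ mice (median 0.20). Hmox1, the heme-degrading enzyme, rose in both (log2FC 2.63 ± 0.57, adjusted p = 0.00585 in transfer mice, log2FC 2.80 ± 0.26, adjusted p = 5.40e-07 in TNF∆ARE mice). It had 3.11 to 57.0 CPM in inflamed transfer mice, against 2.76 to 6.29 CPM in non-inflamed ones, and 12.5 to 31.2 CPM in Tnf ∆ARE/+ mice, against 2.19 to 4.87 CPM in Tnf +/+ mice. Slc7a11, the cystine importer, rose in Tnf ∆ARE/+ mice (log2FC 2.49 ± 0.45, adjusted p = 6.11e-04). Ggt1, the gamma-glutamyltransferase of the brush border, fell in Tnf ∆ARE/+ mice (log2FC -1.90 ± 0.26, adjusted p = 4.10e-05), at 102 to 262 CPM, against 413 to 894 CPM in Tnf +/+ mice. Osgin1 fell as well (log2FC -0.83 ± 0.21, adjusted p = 0.00888). In transfer mice Ggt1 was called higher (log2FC 4.86 ± 1.46, adjusted p = 0.0315), with 723 CPM in library 3, and lost the call without inflamed library 3 or non-inflamed libraries 2, 6 or 7. Vehicle-treated inflamed libraries 1, 3 and 5 and inhibitor-treated inflamed libraries 3, 5 and 6 were also left out together. The log2 fold change of Ggt1 was then 0.92 (adjusted p = 0.343). Txnrd1 rose slightly (log2FC 0.48 ± 0.16, adjusted p = 0.0492) and lost the call without inflamed libraries 1, 4, 5 or 6 or non-inflamed libraries 1, 2, 4 or 6. The NRF2 targets Nqo1 (log2FC 0.35 ± 0.25, adjusted p = 0.347 in transfer mice, log2FC 0.14 ± 0.25, adjusted p = 0.809 in TNF∆ARE mice) and Gclc (log2FC 0.08 ± 0.16, adjusted p = 0.757 in transfer mice, log2FC -0.44 ± 0.22, adjusted p = 0.212 in TNF∆ARE mice) did not pass.

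Efflux transporters export the conjugates. Of 10 tested in vehicle-treated Tnf ∆ARE/+ mice 4 rose and 2 fell (median -0.06), and of 9 tested in vehicle-treated inflamed transfer mice 1 rose and 0 fell (median -0.03). The difference between the models itself passed for 4 of 10, against 5.27% of all genes. It was more positive in TNF∆ARE mice for Abcc1 (difference 1.40 ± 0.38, adjusted p = 0.0229) and Abcc3 (difference 1.22 ± 0.32, adjusted p = 0.0187). It was more negative for Slc47a1 (difference -6.20 ± 1.31, adjusted p = 0.0034) and Abcc2 (difference -4.68 ± 1.43, adjusted p = 0.0466). Abcc2 gave a log2 fold change of 3.92 ± 1.49 (adjusted p = 0.0829) in vehicle-treated inflamed transfer mice. In inhibitor-treated ones it gave -1.52 ± 1.33 (adjusted p = 0.401). Abcc2 was higher in vehicle-treated Tnf +/+ than in vehicle-treated non-inflamed transfer mice (log2FC 5.57 ± 1.01, adjusted p = 2.88e-05). The 10 transporters summed to 169.5 to 1853 CPM (median 339) in vehicle-treated inflamed transfer mice, against 631 to 1460 CPM in their non-inflamed group. How far single libraries carry the Abcc2 difference is not given here. In transfer mice Slc47a1 was at 19.7 CPM in vehicle-treated inflamed library 3, the library with small intestinal markers, and at most 1.91 CPM in any other. In inhibitor-treated inflamed transfer mice Abcc5 rose (log2FC 0.98 ± 0.22, adjusted p = 0.00326), and Abcc6 (log2FC -1.61 ± 0.58, adjusted p = 0.0479) and Abcb1a (log2FC -2.59 ± 0.91, adjusted p = 0.0439) fell. Abcb1b, a P-glycoprotein gene, rose in Tnf ∆ARE/+ mice (log2FC 1.56 ± 0.38, adjusted p = 0.00633), as did Abcc4 (log2FC 1.38 ± 0.38, adjusted p = 0.0167), an exporter of organic anions. Abcc4 had an adjusted p of 0.0861 without Tnf ∆ARE/+ library 1. Abcg2, which exports sulfate conjugates, fell (log2FC -0.90 ± 0.19, adjusted p = 0.00231), and so did Slc47a1, an exporter of organic cations, at 3.38 to 8.50 CPM in Tnf ∆ARE/+ mice, against 12.6 to 31.5 CPM in Tnf +/+ mice (log2FC -2.12 ± 0.35, adjusted p = 3.00e-04). Abcc5 was the gene that rose in transfer mice (log2FC 0.82 ± 0.24, adjusted p = 0.0277), and it lost the call without inflamed libraries 1 or 4 or non-inflamed libraries 1, 2 or 6. Among 9 deconjugating enzymes 2 rose and 0 fell in each model (medians 0.02 in transfer mice and 0.04 in TNF∆ARE mice). Gusb, the lysosomal beta-glucuronidase, rose in both (log2FC 0.92 ± 0.30, adjusted p = 0.0441 in transfer mice, lost without inflamed libraries 1, 4, 5 or 6 or non-inflamed libraries 1, 2, 4 or 6, and log2FC 1.09 ± 0.18, adjusted p = 2.92e-04 in TNF∆ARE mice, kept with any 1 library left out). The heparan sulfate endosulfatases Sulf2 in transfer mice (log2FC 1.38 ± 0.42, adjusted p = 0.0345, lost without inflamed libraries 1, 4 or 5 or non-inflamed libraries 1, 4 or 6) and Sulf1 in TNF∆ARE mice (log2FC 2.85 ± 0.32, adjusted p = 4.03e-06) were the others.

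Other conjugation and detoxification enzymes split in TNF∆ARE mice, where 3 of 22 rose and 7 fell (median -0.27), while 0 of 23 rose and 2 fell in transfer mice (median -0.22). The aldo-keto reductase Akr1b8 (log2FC 2.48 ± 0.26, adjusted p = 2.52e-06) and the carbonyl reductase Cbr3 (log2FC 1.99 ± 0.25, adjusted p = 1.93e-05) rose in Tnf ∆ARE/+ mice, with Akr1b8 at 13.2 to 32.2 CPM, against 2.65 to 6.16 CPM in Tnf +/+ mice. Inmt, an indolethylamine N-methyltransferase (log2FC -3.47 ± 0.80, adjusted p = 0.00327), and Akr1c14, a hydroxysteroid dehydrogenase (log2FC -2.58 ± 0.34, adjusted p = 3.07e-05), fell most. Akr1c14 fell in transfer mice as well (log2FC -1.27 ± 0.28, adjusted p = 0.00605). Hpgds, the prostaglandin D synthase of the sigma glutathione S-transferase class, fell in transfer mice (log2FC -1.07 ± 0.32, adjusted p = 0.0294, lost without inflamed libraries 4 or 5 or non-inflamed library 6) and rose in TNF∆ARE mice (log2FC 1.14 ± 0.23, adjusted p = 0.00173). The difference of these changes was 2.22 ± 0.40 (adjusted p = 8.95e-04). Of 27 sensors and regional regulators tested in transfer mice, 2 rose and 2 fell (median -0.06), and of 26 tested in TNF∆ARE mice 1 rose and 4 fell (median -0.14). The nuclear receptor genes Hnf4g (log2FC -1.38 ± 0.23, adjusted p = 2.97e-04) and Ppara (log2FC -1.20 ± 0.33, adjusted p = 0.0154) fell most in Tnf ∆ARE/+ mice, and Ppara lost the call without Tnf ∆ARE/+ library 2 or Tnf +/+ library 5. Nr1i2, the xenobiotic receptor PXR, fell by less (log2FC -0.58 ± 0.15, adjusted p = 0.0133), and Foxa1 rose (log2FC 0.72 ± 0.22, adjusted p = 0.0323), lost without Tnf ∆ARE/+ libraries 1, 2 or 5 or Tnf +/+ library 4. In transfer mice Foxa2 (log2FC -1.17 ± 0.35, adjusted p = 0.0322, lost without inflamed libraries 1 or 6 or non-inflamed library 6) fell, and Mafg (log2FC 0.49 ± 0.14, adjusted p = 0.0235, lost without inflamed library 1 or non-inflamed library 6) rose. Gata4, a small intestinal regulator, was called higher (log2FC 5.48 ± 1.53, adjusted p = 0.021), with 41.3 and 7.65 CPM in inflamed libraries 3 and 1 and at most 0.467 CPM in the other 4, and was lost without inflamed library 3 or non-inflamed library 6. The gene for the aryl hydrocarbon receptor, Ahr (log2FC -0.27 ± 0.20, adjusted p = 0.373 in transfer mice, log2FC 0.43 ± 0.23, adjusted p = 0.259 in TNF∆ARE mice), and that for NRF2, Nfe2l2 (log2FC -0.21 ± 0.16, adjusted p = 0.382 in transfer mice, log2FC -0.22 ± 0.12, adjusted p = 0.246 in TNF∆ARE mice), did not pass. Genes on these 6 lists are described by counts and medians, and the lists were not tested as sets.

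Outside the families, the genes whose log2 CPM followed Ugt2b34, the most abundant of the 39 per kb, most closely over 44 libraries were Hpgd (Pearson r 0.935), Sord (0.934), Sh3gl2 (0.931), Rundc3b (0.929) and Chp2 (0.928), of 12820 genes compared. Hpgd encodes the prostaglandin-degrading dehydrogenase and Sord sorbitol dehydrogenase. Within the transfer model the r of Hpgd was 0.938 and within the TNF∆ARE model 0.854. These libraries share groups, batches and tissue make-up, so the values are descriptions.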

How the data were processed

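The 44 libraries of mouse intestine were made from poly-A RNA with a stranded kit, per the labels' protocols. The authors deposited expected counts per gene, estimated with Salmon 0.14.1 on mm10/GRCm38, per the submitters' processing notes, which also name DESeq2; the deposited normalized tables were not used here. Expected counts were rounded to whole numbers. Per model, genes passing filterByExpr were scaled by TMM and fitted in edgeR 4.0.16 (R 4.3.3) over 4 groups with batch as a term; the models were compared in 1 fit of 44 libraries, with batch within model for the difference of inflammation effects and no batch term between non-inflamed groups. Quasi-likelihood tests were two-sided, and p-values were adjusted by Benjamini-Hochberg over every gene in the fit, threshold 0.05. CPM are counts per M of TMM-scaled library size over 44 libraries.

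Samples were grouped by their labels. Totals of 5.80 to 22.3 M counts per library limit genes under 1 CPM. Symbols came from GENCODE M21, for 29395 of 29720 IDs, and 220 of 223 entries of 6 pathway and 12 marker lists were matched. The genes and lists were chosen with earlier results of these data known. Genes named singly were members called in the inflammation comparisons or among the most abundant of their family, and up to 2 called genes per direction of each list; further list genes (Nqo1, Gclc, Ahr, Nfe2l2, Osgin1, Cbr3 and the like) were added after their values were seen, and 1 list gene that this rule would name is not reported here. Alternatives were DESeq2 1.42.0, RLE scaling, leaving out the count filter or the batch term, a replicate block, single batches, each library left out, and sets of libraries with transcripts of other organs or gut regions left out, the last chosen after seeing the data. The fit was tested on simulated counts. In no comparison did every same-numbered pair of libraries deviate together (correlation above 0.1 in each pair), so the numbers were not used as pairs.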

Additional observations from a re-analysis of the deposited data

Results flagged for a closer look

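In 23 of 159 groups of 5 or 6 libraries tested, over 20 genes, the highest library stood apart from the others by Dixon's criterion. For normally distributed values, chance meets it in about 1 in 20 groups. The criterion was applied to CPM without a log scale, so the 23 of 159 cannot be read against that rate. Vehicle-treated inflamed transfer library 3, the library with small intestinal markers, stood out for Ugt1a1 at 247 CPM (next 42.2 CPM), Sult1d1 at 341 CPM, Ugt2a3 at 16.3 CPM, Ugt2b5 at 12.4 CPM and Ugt2b36 at 10.8 CPM. Library 2 of the same group stood out for Sult1a1 at 132 CPM (next 13.9 CPM), Gstm1 at 121 CPM (next 46.8 CPM) and Sult1c2 at 9.09 CPM (next 2.87 CPM), and library 6 for Gsta4 at 46.4 CPM and Gstp3 at 28.9 CPM. Among inhibitor-treated inflamed transfer mice, library 2 was high in Gsta3 at 47.5 CPM and Gstp3 at 31.9 CPM. In inhibitor-treated non-inflamed transfer mice, library 6 was high in Gstm2 at 113 CPM and Gsta4 at 49.7 CPM, library 2 in Ugt2b5 at 14.7 CPM, and library 1 held the only Ugt2a3 read of its group, 0.0507 CPM. In vehicle-treated non-inflamed transfer mice, library 4 was high in Sult1b1 at 466 CPM and Ugt1a1 at 113 CPM, and library 6 in Ugt2b5 at 8.01 CPM, Ugt2b36 at 1.37 CPM and Ugt2a3 at 0.0474 CPM, the only Ugt2a3 read of that group. Inhibitor-treated Tnf +/+ library 3 was high in Gsta4 at 44.6 CPM and Gstm1 at 44.6 CPM.

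The inflammation effect under vehicle differed between the models for 8 genes by the test of the difference itself, TNF∆ARE minus transfer, on the log2 scale. The differences were 4.71 for Gsta2, 3.35 for Sult1a1, 2.87 for Sult1c2, 2.70 for Ugt1a6a, 2.08 for Gstm1, 2.06 for Gsta3, 1.76 for Gstm2 and 0.99 for Gstm4.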

How the results depend on the processing

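Under the settings tried, the 78 calls of a gene in a comparison kept their direction and side of the threshold in 1153 values, lost the call in 230 and changed sign in 0. Of the 78, 43 kept the call with any 1 library left out, and 50 lost it under at least 1 of the other settings. With 1 library left out, the number of called genes ranged from 4 to 16 for inflammation in vehicle-treated transfer mice and 11 to 16 in inhibitor-treated ones, 8 to 16 in vehicle-treated TNF∆ARE mice and 1 to 15 in inhibitor-treated ones, 4 to 13 for the difference between models, 16 to 20 between the non-inflamed groups, and was 0 throughout in each of the 4 inhibitor comparisons. Batch 4 alone gave 0 genes for inflammation in vehicle-treated transfer mice (0% of all genes) and batch 3 alone 0 in inhibitor-treated ones (0.0142%), and batch 2 alone gave 7 in vehicle-treated (9.53%) and 1 in inhibitor-treated (2.06%) TNF∆ARE mice, where 1 arm of each inhibitor-treated fit was a single library. Without libraries holding transcripts of other organs or gut regions, the counts were 5 in vehicle-treated transfer mice, 6 in vehicle-treated and 7 in inhibitor-treated TNF∆ARE mice, and 3 for the difference between models. For inhibitor over vehicle, Sult6b2 alone of the phase II genes was called. DESeq2 called it in non-inflamed transfer mice (on 0 against 1 count, with 0.205% of all genes called). The fit without a count filter called it in inflamed transfer mice (with 0.0135% of all genes called). Vehicle-treated inflamed transfer library 1 holds nearly all Sult6b2 reads of these mice, so the call in inflamed mice describes that library. It is also the single vehicle library of batch 3, so the fit of that batch alone describes it too. Smaller sets hold fewer libraries; the cause was not tested otherwise.

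With the replicate number as a block, the counts were 13 for inflammation in vehicle-treated transfer mice (40.0% of all genes), 16 in inhibitor-treated transfer mice (41.3%), 11 in vehicle-treated (15.7%) and 6 in inhibitor-treated (6.46%) TNF∆ARE mice, and 0 in each inhibitor comparison. Same-numbered libraries were correlated above 0.1 in 3 of 4 pairs of non-inflamed transfer mice (median 0.327) and in a smaller share of pairs in the other comparisons, so the block is a check only. No paired analysis was possible between the models because their libraries come from separate sets of mice.

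Depth limits genes near or under 1 CPM, where calls rest on few reads. Batch, model and gut region cannot be told apart, the region of each library is not given, and Ugt1a, Gstp and Gstm counts can depend on how reads of shared sequence were split.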
